A study of Mus musculus with 6 samples.

Results

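The genes described here are 10 readers and writers of histone H3 lysine 9 (H3K9) methylation: the HP1 genes Cbx1, Cbx3 and Cbx5, the methyltransferase genes Suv39h1, Suv39h2, Ehmt1, Ehmt2 and Setdb1, the SETDB1 recruiter Trim28 and the chromatin remodeller Atrx. They were taken by symbol from tables that list 28293 genes, and all 10 were found and passed the low-count filter, as did 15081 genes in all. RNA was sequenced from a mouse dermal fibroblast line in 6 libraries, 3 of genotype WT and 3 of genotype Lap2alpha KO (KO), grown in the same serum-containing medium. LAP2alpha is an isoform of the protein encoded by Tmpo that lies in the nuclear interior and binds A-type lamins. The labels give the genotype, but not how the knockout was made, whether the KO cells come from a single clone, or whether replicates were separate cultures, so the p-values reflect library-to-library spread, which may be technical, and differences between cell lines or clones cannot be told apart from loss of LAP2alpha.

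Methylation of H3K9 marks heterochromatin, the compact and mostly silent part of the genome. SUV39H1 and SUV39H2 place the trimethyl mark at pericentromeric repeats, the EHMT2 (G9a) and EHMT1 (GLP) pair places mono- and dimethylation in euchromatin and in regions at the nuclear periphery, and SETDB1 trimethylates H3K9 at retroelements and imprinted genes, where TRIM28 and KRAB zinc finger proteins bring it. The HP1 proteins bind the methylated lysine through a chromodomain, and ATRX, with DAXX, deposits histone H3.3 in heterochromatin. In fibroblasts this chromatin lies mostly at the nuclear lamina and in chromocentres.

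The writers split by family. Transcripts of both SUV39H genes were lower in KO, to 0.546-fold (Suv39h1) and 0.522-fold (Suv39h2) of WT, while both G9a/GLP genes were higher, by 1.36-fold (Ehmt1) and 1.3-fold (Ehmt2). Setdb1 was slightly higher, its partner Trim28 was lower, and Atrx was higher. None of the HP1 reader genes passed the test. Fold changes are KO over WT, and a gene is said to be called, to have risen or to have fallen, when its Benjamini-Hochberg adjusted p in edgeR, over all tested genes, was under 0.05.

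Of the 10 genes, 7 were called, 4 higher and 3 lower in KO, and 3 were not called. This is close to the background, since 75.1% of all tested genes were called, 37.7% higher and 37.5% lower. The KO and WT values of 7 of the 10 did not overlap, where the share over all tested genes was 76.8%. Their median log2 fold change was −0.01, beside 0.01 over all tested genes, and their median absolute log2 fold change was 0.39, beside 0.58. When changes were tested against a fold of 1.5, Suv39h1 and Suv39h2 were the 2 members that passed, and 37.3% of tested genes did.

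Library totals ranged from 22159339 counts in WT replicate 1 to 27281473 in KO replicate 1, and mitochondrially encoded genes took 1.99 to 2.45% of the counts in WT and 3.76 to 4.46% in KO. Tmpo, whose count sums all LAP2 isoforms, stood at 252 ± 2.65 CPM (counts per 1000000 counts of a library, mean ± SD, n = 3) in WT and 129 ± 6.81 CPM in KO. All 10 fibroblast markers had counts, with a summed level of 5836 to 6228 CPM in WT and 22720 to 24119 CPM in KO. The most abundant was Col1a2 (1788 ± 80.1 CPM in WT, 10955 ± 184 CPM in KO). Of the 10, 9 were called higher, beside 37.7% of all tested genes, in a list chosen with earlier results of these data known. Thy1 was called lower (379 ± 16.5 to 238 ± 11.5 CPM, log2 fold change −0.75, edgeR adjusted p = 6.9e-07). Markers of keratinocytes, endothelium, immune cells, melanocytes, muscle and Schwann cells summed to at most 8.39 CPM for any type in any library, and no counts were found for Krt5, Krt1, Adgre1, Cd3e, Myod1, Myog, Myf5 and Sox10. The sums were higher in KO for immune (2.79 to 4.39 against 0.866 to 1.09 CPM), muscle (2.86 to 2.98 against 0.496 to 0.716 CPM) and Schwann cell markers (5.01 to 7.16 against 1.38 to 1.67 CPM). They were lower in KO for keratinocyte (4.49 to 6.27 against 6.63 to 8.39 CPM), endothelial (0.233 to 0.88 against 1.26 to 1.47 CPM) and melanocyte markers (0.367 to 0.905 against 1.17 to 2.98 CPM). The part of these differences in the results was not tested. The proportion of cells and the RNA per cell cannot be told apart in these bulk libraries.

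**Figure D1:**
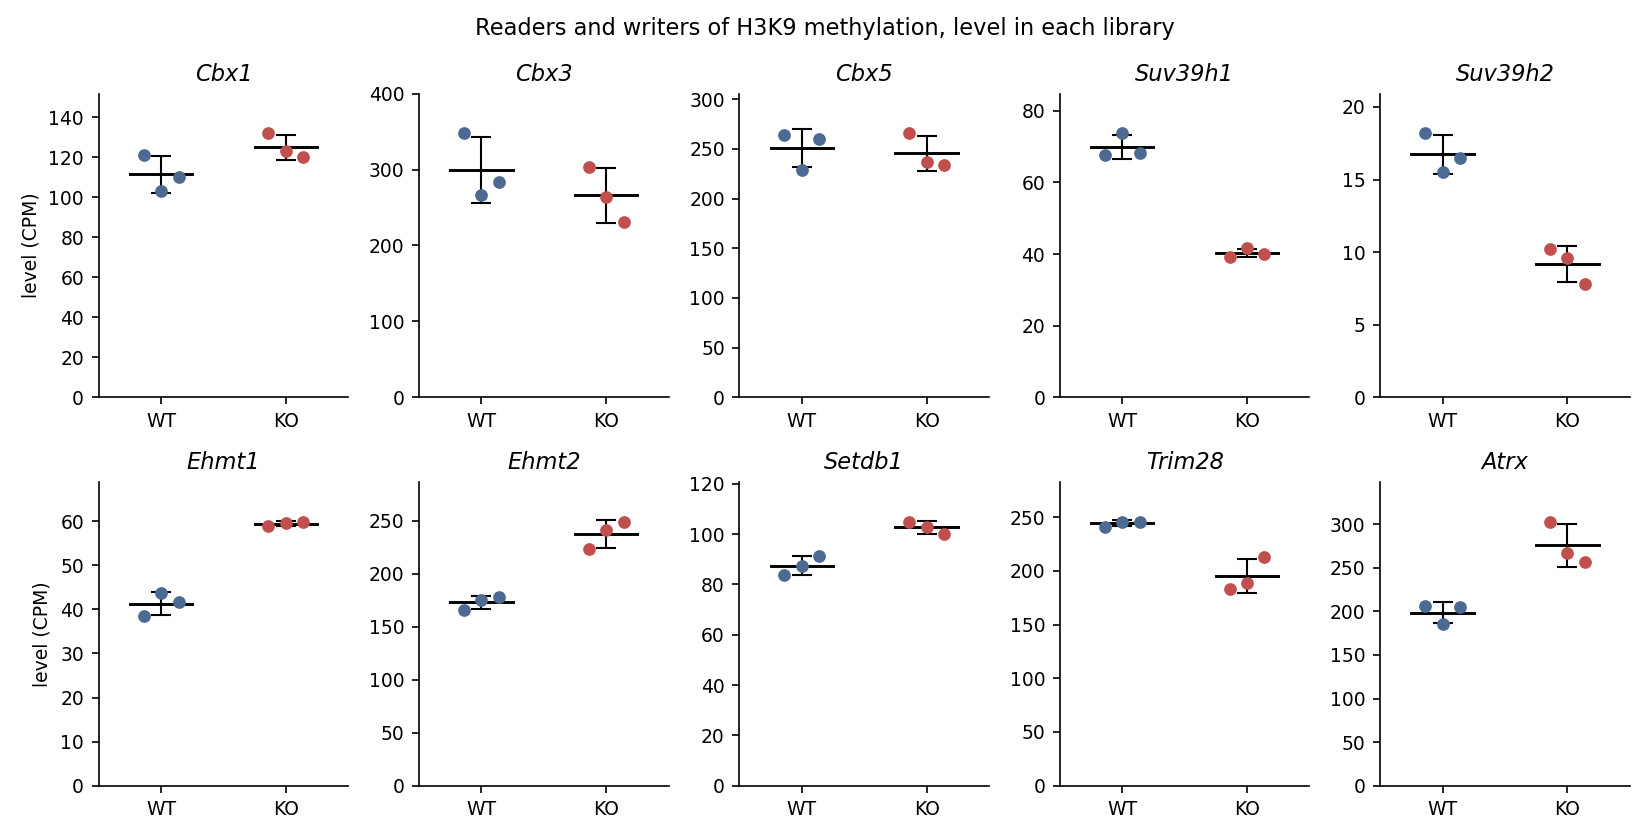
Level of each of the 10 genes in CPM (vertical axis, from 0, scaled per gene) in the 3 WT (blue) and 3 KO (red) libraries. Points are libraries, horizontal bars the mean and error bars the SD. The Suv39h1, Suv39h2 and Trim28 points of KO all lie below those of WT, and the Ehmt1, Ehmt2, Setdb1 and Atrx points all lie above.

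**Figure D2:**
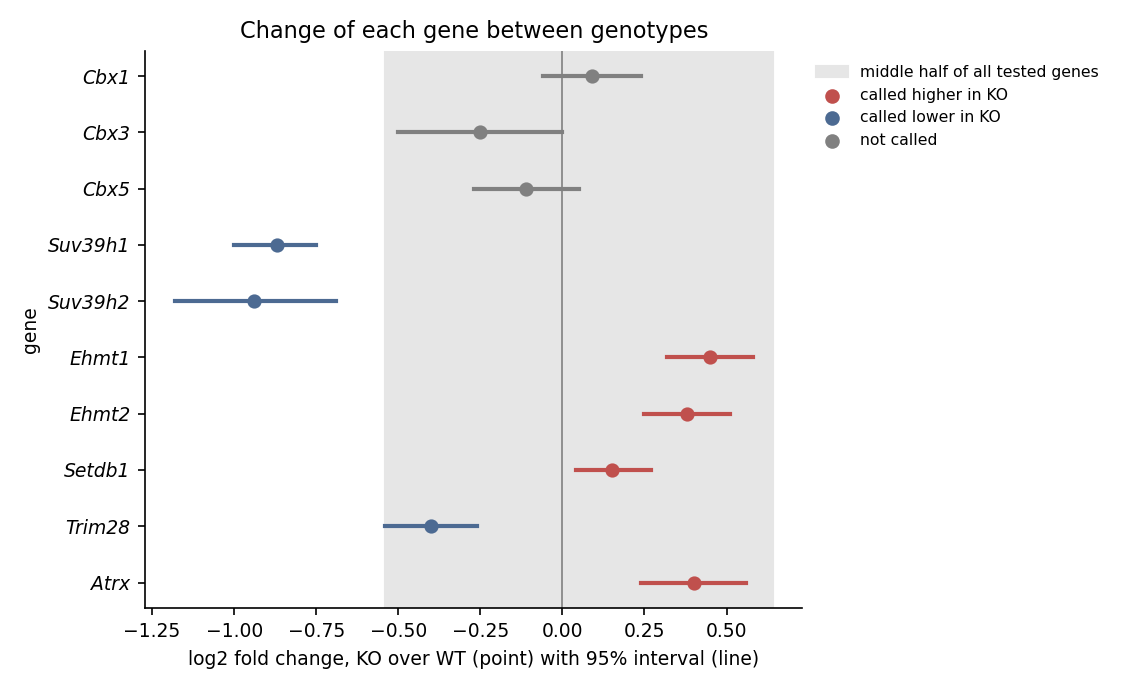
Log2 fold change of each gene, KO over WT, with its 95% interval (line) from the edgeR fit. The grey band spans the 25th to 75th percentile of all tested genes (−0.54 to 0.64), and only Suv39h1 and Suv39h2 have their estimate outside it.

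SUV39H1 and SUV39H2 are paralogs that trimethylate H3K9 at constitutive heterochromatin and thereby create HP1 binding sites. Suv39h1 (ENSMUSG00000039231) lies on the minus strand of chromosome X at 8061171 to 8074760 in GRCm38. Its levels were 67.7, 73.8 and 68.3 CPM in the WT libraries and 39.3, 41.7 and 39.9 CPM in the KO libraries. Every KO library was below every WT library, and the gap was far wider than the spread within either group. On the log2 scale the change was −0.87 (SE 0.0571, 95% interval of the fold 0.50 to 0.60, edgeR adjusted p = 2.3e-07). Suv39h2 (ENSMUSG00000026646, chromosome 2, 3455815 to 3475031, minus strand) had the lowest level per length of the 10. It measured 18.2, 15.5 and 16.5 CPM in WT and 10.2, 9.58 and 7.8 CPM in KO, again without overlap. The log2 fold change was −0.94 (SE 0.11, 95% interval −1.18 to −0.69, edgeR adjusted p = 2.0e-05). These are the largest changes among the 10, and 33.4% of tested genes changed more than Suv39h1 and 30.6% more than Suv39h2.

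The SUV39H paralogs were also compared with each other. The log2 count ratio of Suv39h1 over Suv39h2, which does not depend on library scaling, was 1.89, 2.25 and 2.05 in WT and 1.94, 2.12 and 2.35 in KO. The groups overlapped, and the means differed by 0.076 (exact two-sided permutation test, p = 0.7, Benjamini-Hochberg adjusted p = 0.8 over the 8 ratios and shares computed). With 3 libraries against 3 this test cannot give a p below 0.1. In the annotation, 14.6% of the exonic bases of Suv39h1 lie opposite the antisense model Gm14820, which held at most 1 count in any library, and 9.98% of that of Suv39h2 opposite other genes, mainly Dclre1c. How the authors' counting treated strand is not given in the sources used here.

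EHMT2 (G9a) and EHMT1 (GLP) act as a heterodimer. Ehmt2 (ENSMUSG00000013787, chromosome 17, 34898469 to 34914052, plus strand) measured 166, 175 and 178 CPM in WT and 223, 241 and 249 CPM in KO. Ehmt1 (ENSMUSG00000036893, chromosome 2, 24789928 to 24919614, minus strand) measured 38.5, 43.7 and 41.7 CPM in WT and 58.9, 59.6 and 59.9 CPM in KO. For both genes the lowest KO library stood above the highest WT library. The log2 fold change was 0.38 for Ehmt2 (SE 0.057, edgeR adjusted p = 1.3e-04) and 0.45 for Ehmt1 (SE 0.0585, edgeR adjusted p = 4.7e-05). The log2 count ratio of Ehmt1 over Ehmt2 was −2.07 ± 0.0579 in WT and −2.00 ± 0.0695 in KO (mean ± SD, n = 3, exact permutation p = 0.3, where the smallest possible is 0.1). The count ratio of Ehmt1 to Ehmt2 was 0.239 in WT and 0.25 in KO, and the groups overlapped.

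The promoter sequences of these gene pairs are shown because the pairs moved in opposite directions. The sequences are from RefSeq (GRCm38.p6, 5′ to 3′ on the strand of the gene), limited to the longest stretch of the 250 bases before an annotated start that holds no annotated exon. Capitals mark an E2F-type match, that is, TTTCCCGC, TTTCGCGC, TTTGCCGC or TTTGGCGC on either strand. Suv39h1 and Ehmt2 each have a further start that is not shown. For Suv39h1 the start shown is the one with a match, and its upstream start held none.
Suv39h1, downstream start, chrX:8074362-8074543, minus strand: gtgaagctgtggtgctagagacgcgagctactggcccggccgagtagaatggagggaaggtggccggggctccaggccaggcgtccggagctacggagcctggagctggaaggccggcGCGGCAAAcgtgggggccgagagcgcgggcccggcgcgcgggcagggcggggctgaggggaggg
Suv39h2, chr2:3475032-3475236, minus strand: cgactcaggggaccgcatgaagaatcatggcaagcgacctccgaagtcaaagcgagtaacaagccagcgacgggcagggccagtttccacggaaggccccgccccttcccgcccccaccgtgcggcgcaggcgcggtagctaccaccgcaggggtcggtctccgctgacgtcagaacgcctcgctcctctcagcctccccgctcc
Ehmt1, chr2:24919615-24919859, minus strand: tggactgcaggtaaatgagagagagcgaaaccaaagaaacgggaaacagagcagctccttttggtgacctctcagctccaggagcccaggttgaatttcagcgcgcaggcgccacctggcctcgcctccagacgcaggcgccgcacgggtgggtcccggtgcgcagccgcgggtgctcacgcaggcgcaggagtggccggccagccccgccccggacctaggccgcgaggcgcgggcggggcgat
Ehmt2, upstream start, chr17:34898266-34898468, plus strand: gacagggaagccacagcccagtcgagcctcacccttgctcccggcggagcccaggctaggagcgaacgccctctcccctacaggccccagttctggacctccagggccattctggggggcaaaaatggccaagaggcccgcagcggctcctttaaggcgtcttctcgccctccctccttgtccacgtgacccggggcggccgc

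All 10 genes matched the RefSeq table, with 14 windows of 300 bases (250 before to 50 after a start). An E2F-type match was found in 2 of these 14 windows, those of the downstream Suv39h1 start and of a Cbx3 start, beside 2.3% of all 32851 windows. Among the windows of the replication and mitosis genes, 7 of 18 held a match. The CCAAT box, searched as CCAAT on both strands, was found in 4 of the 14 windows, in 37.4% of all windows and in 17 of the 18 windows of replication and mitosis genes. The CHR element, searched as TTTGAA on both strands, was found in 1 of the 14 windows (Suv39h2), in 17.9% of all windows and in 5 of the 18. The E2F-type match in Suv39h1 begins 64 bases before its downstream start, which lies inside the gene as GENCODE annotates it. The window of its upstream start held no E2F-type match but did hold CCAAT boxes. The E2F-type letters were also not found in the windows of Suv39h2, Ehmt1 and Ehmt2. A match describes the letters only.

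SETDB1 and TRIM28 act in the same repressive complex, but their transcripts moved in opposite directions. TRIM28 (KAP1) is the corepressor that KRAB zinc finger proteins bind. Trim28 (ENSMUSG00000005566, chromosome 7, 12999114 to 13031035, plus strand) measured 241, 246 and 246 CPM in WT and 183, 189 and 213 CPM in KO. The KO libraries were more spread than those of WT, with KO replicate 3 the closest to WT, and the groups did not overlap. Its log2 fold change was −0.40 (SE 0.0638, edgeR adjusted p = 2.0e-04). Setdb1 (ENSMUSG00000015697, chromosome 3, 95323525 to 95357202, minus strand) measured 83.9, 87.3 and 91.3 CPM in WT and 105, 103 and 100 CPM in KO. Its rise was the smallest of the called changes, with a log2 fold change of 0.15 (SE 0.051, 95% interval 0.04 to 0.27, edgeR adjusted p = 0.019). That call was lost without WT replicate 1 (log2 fold change 0.10, edgeR adjusted p = 0.12), WT replicate 2 (edgeR adjusted p = 0.054) or KO replicate 2 (edgeR adjusted p = 0.05), and with no low-count filter (edgeR adjusted p = 0.1). The non-coding RNA Gm4349, which matches Setdb1 at 99.7% over 295 bases, held 69, 74 and 61 counts in WT and 163, 164 and 121 in KO, and 4.73% of the exonic bases of Setdb1 lie opposite other genes. The part of either in the Setdb1 count was not tested.

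The balance of these partners was also compared within each library. The log2 count ratio of Setdb1 over Trim28 was −1.53, −1.49 and −1.43 in WT and −0.81, −0.88 and −1.08 in KO, which corresponds to 0.358 Setdb1 reads for each Trim28 read in WT and 0.528 in KO. The groups did not overlap, and the exact permutation test gave its smallest possible p of 0.1 (adjusted p = 0.2 over the 8 ratios and shares).

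ATRX is a SWI/SNF-type helicase that is recruited to H3K9-methylated repeats and telomeres. Atrx (ENSMUSG00000031229, chromosome X, 105797615 to 105929403, minus strand) measured 206, 185 and 205 CPM in WT and 303, 267 and 257 CPM in KO. No KO library fell into the WT range, and KO replicate 1 was the highest. The log2 fold change was 0.40 (SE 0.0707, 95% interval 0.24 to 0.56, edgeR adjusted p = 4.5e-04). Of its partner genes, Daxx, the H3.3 chaperone, was not called (37.9 ± 0.977 CPM in WT, 41.9 ± 2.46 CPM in KO, n = 3, log2 fold change 0.07). Of the genes for H3.3 itself, H3f3b fell (−0.33, edgeR adjusted p = 3.3e-04) and H3f3a, at a log2 fold change of 0.18, was not called (edgeR adjusted p = 0.066).

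No HP1 gene was called. CBX5 (HP1alpha), CBX1 (HP1beta) and CBX3 (HP1gamma) share a chromodomain that binds methylated H3K9 and a chromoshadow domain that recruits partners. Cbx1 (ENSMUSG00000018666, chromosome 11, 96789127 to 96808640, plus strand) measured 121, 103 and 110 CPM in WT and 132, 123 and 120 CPM in KO. Cbx5 (ENSMUSG00000009575, chromosome 15, 103191544 to 103239816, minus strand) measured 264, 229 and 260 CPM in WT and 266, 237 and 234 CPM in KO. The groups overlapped for both. The log2 fold change was 0.09 for Cbx1 (95% interval −0.06 to 0.24, edgeR adjusted p = 0.26) and −0.11 for Cbx5 (95% interval −0.27 to 0.05, edgeR adjusted p = 0.18). With library totals as the only scaling, Cbx1 was called (log2 fold change 0.17, edgeR adjusted p = 0.046).

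Cbx3 (ENSMUSG00000029836, chromosome 6, 51470360 to 51483704, plus strand) varied most between replicates. It measured 348, 266 and 284 CPM in WT and 303, 264 and 231 CPM in KO. Replicate 1 was the highest of its group in both genotypes, as it was for Cbx1 and Cbx5, and the groups overlapped. The log2 fold change was −0.25 (SE 0.112, 95% interval −0.50 to 0.00, edgeR adjusted p = 0.066), and the interval therefore extends from a fall to 0.71-fold up to no change. Without KO replicate 1 (−0.34, edgeR adjusted p = 0.017) or WT replicate 2 (−0.32, edgeR adjusted p = 0.031) the gene was called lower. It was also called lower with the DESeq2 Wald test (DESeq2 adjusted p = 0.027), a replicate block (edgeR adjusted p = 0.0018) or no low-count filter (edgeR adjusted p = 8.0e-05). Without the filter the Cbx3 estimate was −0.27, close to that of the main fit. In that fit edgeR adjusted p-values were far lower for other genes too, as for Tmpo (2.5e-54 against 4.9e-08).

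Cbx3 has many near-identical processed pseudogenes, which bears on its count. Of these, 10 with at least 90% identity over at least 200 bases held counts, and together they had 13.9 to 15.6% as many counts as Cbx3 in WT and 15.4 to 17.8% in KO. The most abundant, Cbx3-ps7, matched 99.6% of 552 bases and held 704 to 896 counts per library. Cbx3-ps2 and Cbx3-ps5 differed by at most 1 count in any library (67 and 68 counts in WT replicate 1, 117 and 118 in KO replicate 2). Whether the authors counted reads that match several places more than once was not tested. With the pseudogene counts added to Cbx3, an alternative chosen after seeing the data, the log2 fold change was −0.22 (edgeR adjusted p = 0.1).

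The make-up of the HP1 pool was compared as shares. With 3 libraries against 3, the permutation test could not have called any of them. Per kilobase of annotated exon, the summed HP1 level was 116, 94 and 102 CPM per kb in WT and 111, 99.3 and 92.6 CPM per kb in KO, so that the total overlapped between genotypes. Cbx3 made up 50.2, 47.3 and 46.4% of this sum in WT and 45.5, 44.4 and 41.7% in KO. Cbx1 made up 24.5, 25.6 and 25.3% in WT and 27.8, 29 and 30.3% in KO. Neither share overlapped between groups, with a KO minus WT difference of −4.1 percentage points for Cbx3 and 3.94 for Cbx1 (exact permutation p = 0.1 for each, the smallest possible, adjusted p = 0.2). The Cbx5 share overlapped, at 26.9 ± 1.49% in WT and 27.1 ± 0.858% in KO (n = 3, exact permutation p = 1).

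**Figure D3:**
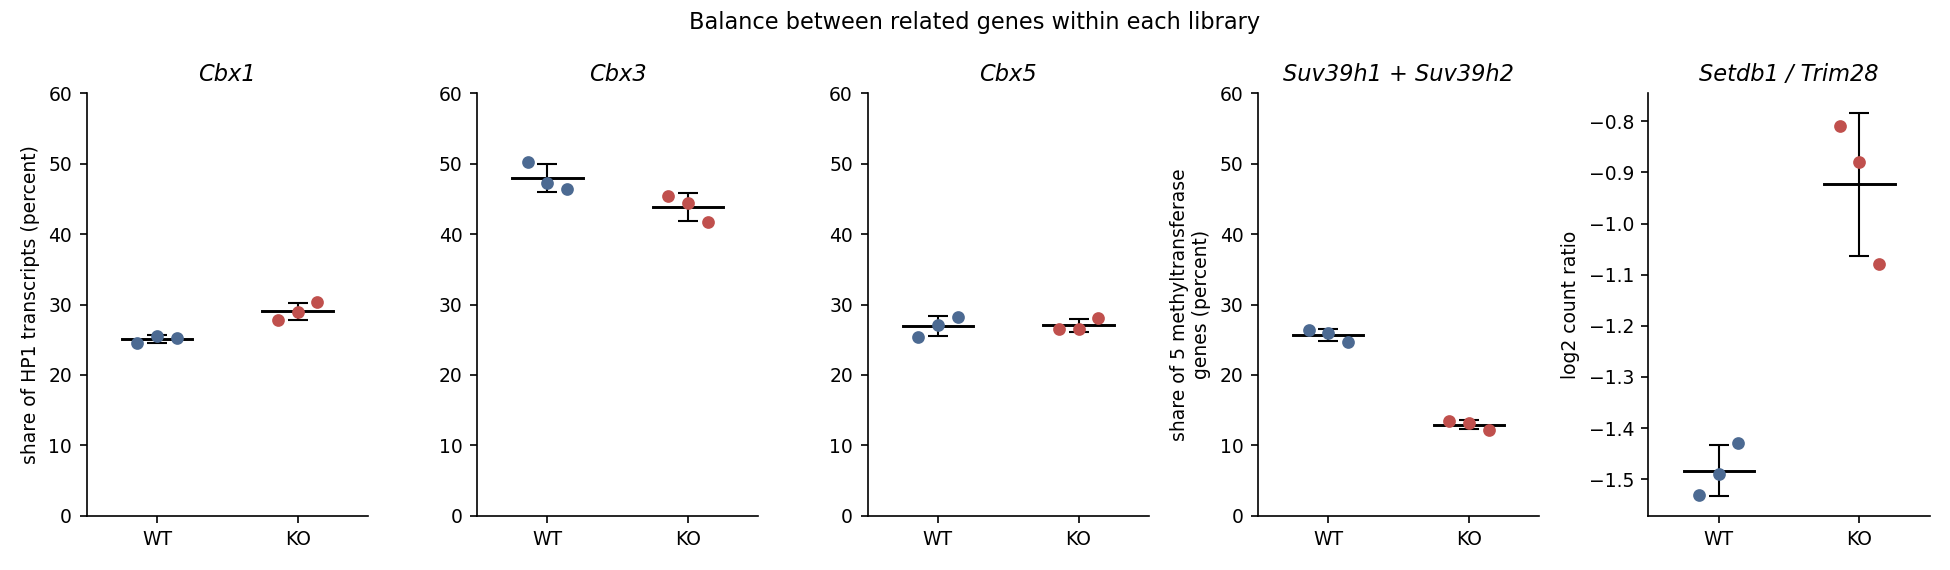
Balance between related genes in each library. The first 3 panels give the share of Cbx1, Cbx3 and Cbx5 in their summed length-scaled level (percent), the fourth the share of Suv39h1 plus Suv39h2 in the 5 methyltransferase genes (percent), and the last the log2 count ratio of Setdb1 over Trim28. Points are libraries, bars the mean and error bars the SD, and the SUV39H share stands at 24.7 to 26.4% in WT and 12.2 to 13.4% in KO.

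Among the 5 methyltransferase genes the SUV39H share was lower in every KO library than in any WT library. Scaled by exon length, Suv39h1 and Suv39h2 summed to 17.1 ± 0.41 CPM per kb in WT and 9.74 ± 0.379 CPM per kb in KO, and Ehmt1 and Ehmt2 to 36.6 ± 1.36 and 50.6 ± 2.5 CPM per kb (mean ± SD, n = 3). The SUV39H pair made up 26.4, 26 and 24.7% of the 5-gene sum in WT and 13.4, 13.2 and 12.2% in KO. The G9a/GLP pair made up 54.5, 55.2 and 55.6% in WT and 65.7, 67.1 and 68.7% in KO. The sum of all 5 was 66.4 ± 1.88 CPM per kb in WT and 75.4 ± 2.1 CPM per kb in KO. These sums were chosen after the single genes had been seen and carry no test.

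In level per kilobase the order of the 10 genes was much the same in both genotypes. Trim28 (58.8 ± 0.587 CPM per kb in WT, 46.9 ± 3.8 in KO) and Cbx3 (50 ± 7.17 and 44.4 ± 5.96) stood at the top, and their values overlapped within KO. Ehmt2 followed in both genotypes (31.5 ± 1.09 and 43.3 ± 2.44), within the range of Cbx3 in KO. Next came Cbx5 (27.9 ± 2.11 and 27.3 ± 1.98) and Cbx1 (26.1 ± 2.14 and 29.3 ± 1.47), whose values overlapped in each genotype. Setdb1 (12.8 ± 0.54) and Suv39h1 (13.3 ± 0.638) overlapped in WT, but in KO Setdb1 (15 ± 0.312) lay well above Suv39h1 (7.65 ± 0.242). In KO, Suv39h1 stood just above Ehmt1 (7.33 ± 0.0636), and Atrx rose from 9.13 ± 0.552 to 12.7 ± 1.11 CPM per kb. Suv39h2 was the lowest in both (3.8 ± 0.315 and 2.09 ± 0.285).

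Cbx3 and Cbx5 each start next to a divergently transcribed gene for an abundant RNA-binding protein. Hnrnpa2b1 begins 466 bases from the start of Cbx3 and Hnrnpa1 begins 616 bases from that of Cbx5, on the opposite strand. Hnrnpa2b1 fell from 1198 ± 51 CPM in WT to 928 ± 20.4 CPM in KO (n = 3, log2 fold change −0.45, edgeR adjusted p = 1.9e-05), and Hnrnpa1 from 1153 ± 63 to 934 ± 19.9 CPM (−0.38, edgeR adjusted p = 1.1e-04). The HP1 gene of each pair was not called. The difference between neighbours was not tested. The Cbx3 window with the E2F-type match belongs to a RefSeq start inside the gene as GENCODE annotates it. Its stretch without annotated exon is shown for that match, in capitals, which begins 168 bases before that start.
Cbx3, chr6:51470432-51470529, plus strand: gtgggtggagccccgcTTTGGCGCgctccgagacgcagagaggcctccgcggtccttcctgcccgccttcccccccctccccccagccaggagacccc

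Enzymes that remove H3K9 methylation were higher or not called. Of 11 demethylase genes 10 were tested, of which 7 rose and 3 were not called, beside 37.7% called higher and 75.1% called in all among the tested genes. The median of their log2 fold changes was 0.52. This list and those that follow were chosen with earlier results of these data known, so the shares called are descriptions only. Kdm7a, a dual H3K9 and H3K27 demethylase, measured 1.81, 1.36 and 1.87 CPM in WT and 21.5, 16 and 15.1 CPM in KO (log2 fold change 3.31, SE 0.18, edgeR adjusted p = 5.9e-08). Kdm3b (0.89), Kdm3a (0.67) and Kdm4a (0.57), which act on mono-, di- or trimethylated H3K9, also rose. The members not called were Jmjd1c (0.10), Kdm4c (−0.06) and the flavin-dependent Kdm1a (−0.03), named here after their values were seen.

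**Figure D4:**
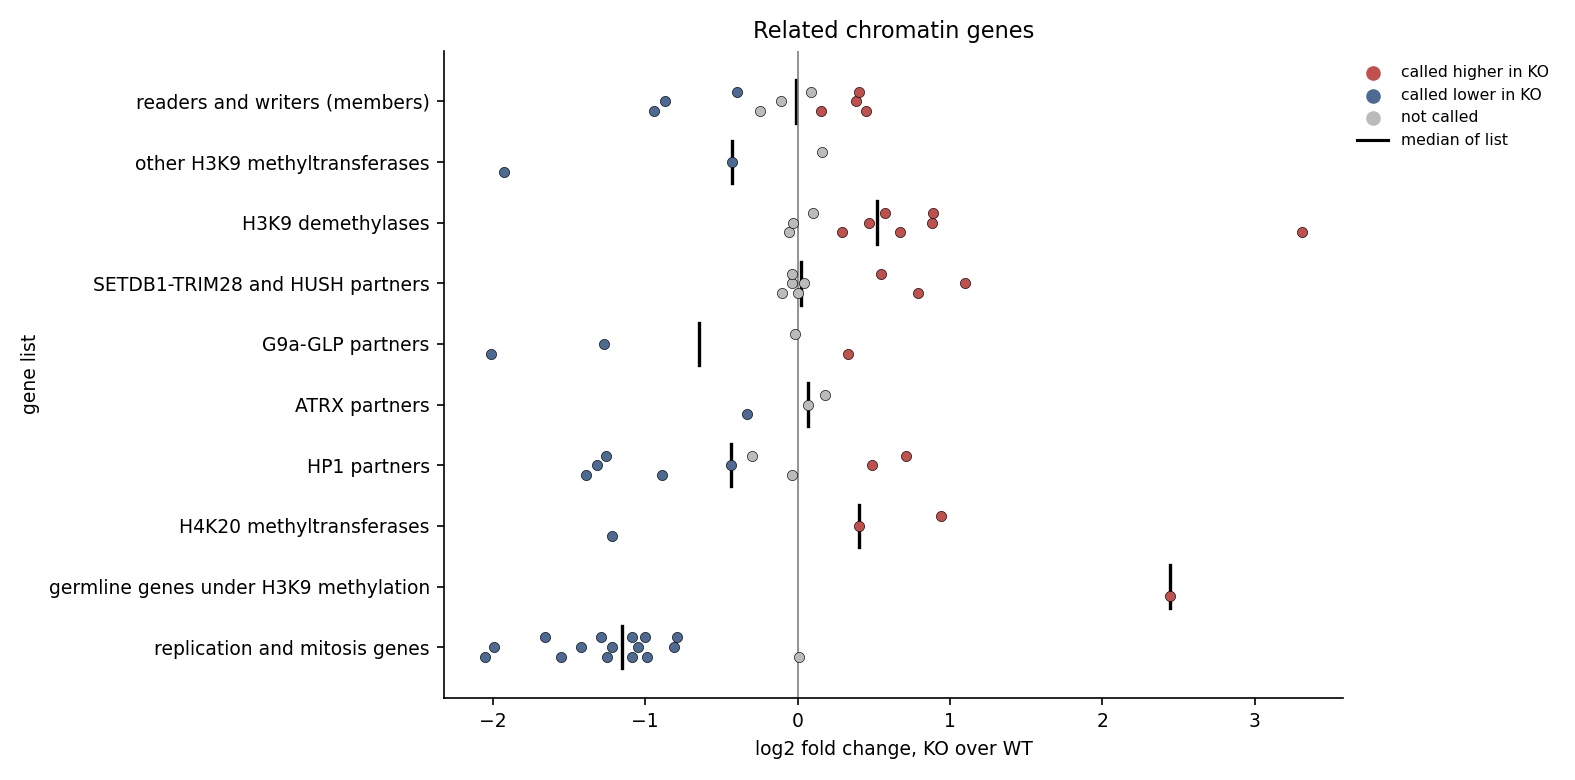
Log2 fold change, KO over WT, of the tested genes of each list shown (points, coloured by call) with the list's median (black line). The demethylase points lie at or above 0 except for Kdm4c and Kdm1a, which lie just below it, and 15 of the 16 replication and mitosis genes lie at −0.79 or below.

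Other H3K9 methyltransferase genes were lower or not called. Mecom, a PRDM family zinc finger factor, measured 62, 59.9 and 65.2 CPM in WT and 19.6, 15.6 and 16.5 CPM in KO (log2 fold change −1.93, edgeR adjusted p = 1.3e-08). Setdb2, a relative of Setdb1, fell from 10.7 CPM in each WT library to 7.84 to 8.76 CPM in KO (−0.43, edgeR adjusted p = 9.0e-04). Prdm2 was not called (0.16, edgeR adjusted p = 0.068). Of the list's 4 genes 3 were tested and 2 fell, beside 37.5% called lower and 75.1% called in all among the tested genes.

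Partners of SETDB1 and TRIM28, including the HUSH complex, had 3 of 8 tested genes higher and 5 not called, a share higher that is about that of all tested genes (37.7%). Atf7ip, which stabilizes SETDB1 in the nucleus, measured 55.1, 51.9 and 57.3 CPM in WT and 127, 120 and 123 CPM in KO, a 2.14-fold rise (log2 fold change 1.10, SE 0.0564, edgeR adjusted p = 3.9e-08). Resf1, a SETDB1 partner in retroelement silencing, rose from 88.1 ± 6.33 to 161 ± 16 CPM (0.79), and Fam208a, the HUSH subunit TASOR, rose from 10.3 to 12.8 CPM in WT to 15.8 to 21.7 CPM in KO (0.55). Pphln1 (−0.10), Morc2a (−0.04), Trim33 (−0.04), Mphosph8 (0.04) and Trim24 (0.00) were not called, and the last 4 were named after their values were seen.

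Of the partners of G9a and GLP, Wiz, a zinc finger protein that holds the heterodimer on chromatin, rose (log2 fold change 0.33, edgeR adjusted p = 0.0011), as Ehmt1 and Ehmt2 did. The chromodomain proteins went the other way, with Cdyl at 6.95, 4.37 and 6.04 CPM in WT and 1.43, 1.47 and 1.63 CPM in KO (log2 fold change −2.01, edgeR adjusted p = 5.2e-06), and Cdyl2 lower as well (−1.27). Zfp644 was not called (−0.02), and its sign changed with the scaling.

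Of 9 genes for proteins that bind HP1 or act with it, 5 fell, 2 rose and 2 were not called, beside 37.5% called lower and 75.1% called in all among the tested genes. Chaf1a and Chaf1b, subunits of the chromatin assembly factor that loads histones behind replication forks, fell from 132 ± 7.28 to 58.3 ± 3.47 CPM and from 58 ± 1.29 to 23.3 ± 0.805 CPM (n = 3, −1.26 and −1.39 on the log2 scale). Incenp, a chromosomal passenger protein, fell (−1.32), and so did Lbr, the inner nuclear membrane receptor that tethers heterochromatin (−0.89, edgeR adjusted p = 2.7e-06). Smarcad1 also fell (−0.44), Senp7 (0.71) and Pogz (0.49) rose, and Lrif1 (−0.30) and Adnp (−0.04) were not called. These 5 were named after their values were seen.

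The next step after H3K9 trimethylation in constitutive heterochromatin is H4K20 methylation, by KMT5B and KMT5C acting on the monomethyl mark that KMT5A places. Kmt5a, whose protein is cell cycle regulated, fell from 257 ± 7.67 CPM in WT to 117 ± 6.35 CPM in KO (n = 3, log2 fold change −1.22, edgeR adjusted p = 1.8e-08). Kmt5b rose from 30 ± 0.635 to 60.8 ± 1.66 CPM (0.94), and Kmt5c rose from 6.89 ± 0.223 to 9.61 ± 0.749 CPM (0.40, edgeR adjusted p = 0.0035).

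Among the chromobox genes of the Polycomb complex, relatives of the HP1 genes whose proteins bind methylated H3K27, Cbx6 (log2 fold change 0.92), Cbx7 (0.88) and Cbx8 (0.71) rose. How far they differ from the HP1 genes was not tested. Cbx2 (−0.15) was not called and is named in view of its value. Cbx6 measured 76.9, 71.4 and 72.7 CPM in WT and 148, 152 and 142 CPM in KO.

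Germline genes that H3K9 methylation helps to keep silent stayed near the detection limit. Of 15 such genes 10 had counts, and 9 of these had a mean of at most 0.375 CPM in either genotype and did not pass the low-count filter. Brdt, a testis bromodomain gene, was the exception, at 2.21, 2.3 and 2.07 CPM in WT and 13, 12.5 and 12.3 CPM in KO (log2 fold change 2.44, SE 0.105, edgeR adjusted p = 1.2e-08).

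Genes of DNA replication and mitosis fell in the same libraries as Suv39h1, Suv39h2, Chaf1a, Chaf1b and Kmt5a. Of 16 on the list 15 fell, beside 37.5% of all tested genes, and the median over the list was −1.16 on the log2 scale. Like the other lists, it was chosen with earlier results of these data known, so this share is a description only. Among them were Rrm2 (−2.05), Mcm3 (−1.99), Pcna (−1.66) and Ccna2 (−1.42). Mki67, the Ki-67 gene, was not called (0.01) and is named in view of its value. The part of cell cycle differences in the SUV39H result was not tested.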

How the data were processed

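Polyadenylated RNA was sequenced from 6 libraries, 3 WT and 3 KO, made with a directional kit, per the labels. The authors deposited raw read counts per Ensembl gene, and the submitters' processing notes list STAR 2.7.10b and GRCm38. The counting program, its annotation and its treatment of strand and multiply mapped reads are, in the sources used here, not given. Symbols and exon lengths came from GENCODE M21 (GRCm38), in which 28230 of 28293 identifiers were found. The 10 members and all gene lists were chosen with earlier results of these data known.

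KO was compared with WT over all genes with edgeR 4.0.16 (R 4.3.3) on the deposited counts, using TMM scaling, the filterByExpr filter, the quasi-likelihood test and Benjamini-Hochberg adjustment. TMM factors were 0.9683 to 0.9806 in WT and 1.02 to 1.034 in KO, so fold changes lie slightly below ratios of CPM. The SE is the absolute log2 fold change over the square root of F. Shares and ratios were tested by exact two-sided permutation over libraries (scipy 1.17.1). Similar transcripts were found with blastn 2.17.0. The named genes are the 10 members, Tmpo, for each list the 4 genes of smallest p, and protein-coding genes starting within 1000 bases on the opposite strand; 2 of these neighbours, C2 and Slc27a5, did not pass the filter. A gene that this rule selects is not reported here.

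In data simulated from these counts for this comparison (14829 genes, 200 changed), edgeR found 36% of the 50 genes given a fold of 1.25 and 78% of those given 1.5. It found 96% for a fold of 2 and 100% for a fold of 4, while 11.9% of its calls were false. Far fewer genes were changed there than the 75.1% called in the real comparison, so these rates do not carry over to the calls reported here. As alternatives, scaling used upper quartiles, DESeq2 size factors or only the library totals; the filter was dropped or set to 1 CPM in 3 libraries; the test was limma-voom (limma 3.58.1) or the Wald test of DESeq2 1.42.0. Further alternatives were a replicate block, a test against a fold of 1.5, omission of mitochondrially encoded genes, omission of each library, and, for shares and ratios, no length scaling or a prior of 0.5 counts. Figures were drawn with matplotlib 3.10.9.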

Additional observations from a re-analysis of the deposited data

How the results depend on the processing

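The direction of each of the 10 members held in all 17 alternatives, and Suv39h1 and Suv39h2 were called in each of them. Against a fold of 1.5, 5621 genes and 2 members were called, 0 of them higher, and Ehmt1 (0.45), Ehmt2 (0.38), Setdb1 (0.15), Trim28 (−0.40) and Atrx (0.40) lost their calls at unchanged estimates; outside this test Ehmt1, Ehmt2, Trim28 and Atrx kept theirs in all others. Cbx3 became called with no filter (−0.27), the DESeq2 Wald test (−0.24) and the replicate block (−0.25, edgeR adjusted p = 0.0018), Cbx1 with library totals alone (0.17), and Setdb1 was lost with no filter (0.13); the cause was not tested. Leaving out 1 library moved Cbx3 between −0.34 and −0.15, Setdb1 between 0.10 and 0.16, members called between 6 and 8, and all genes called between 10791 and 11441. Zfp644 turned positive with upper-quartile scaling (0.05) and library totals (0.06), and ranged from −0.06 to 0.01 when libraries were left out. Apart from Cbx3, the replicate block changed no member's call. Whether the replicate numbers pair the libraries is not known. Deviations of same-numbered libraries from their group means correlated at 0.231, −0.127 and 0.222, and those of differently numbered libraries at −0.448 to 0.381. With 3 libraries per group, these values cannot decide whether the numbers pair the libraries. H3f3a was called in 7, Prdm2 in 5 and Daxx in 1 of the 17 alternatives. The largest SE among called members was that of Suv39h2 (0.11).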
